A study of Homo sapiens with 27 samples.

Results

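Ribosome footprints were compared between thapsigargin-treated and untreated cycling IMR90 cells, an established line of normal human fetal lung fibroblasts. The comparison used 5 of the 27 libraries of the study: the 2 Ribo-seq libraries titled as thapsigargin-treated cycling cells and the 3 titled as cycling cells. Ribo-seq sequences the mRNA pieces that ribosomes shield from RNase, so the count of a gene follows both the amount of its mRNA and the number of ribosomes on it. The cycling libraries are labelled wild type, and no genetic change is given for the thapsigargin libraries. Treated cells received 25 nM thapsigargin for 3 h. Cells of both groups were at 40 to 60% confluency, in high-glucose DMEM with 10% serum and non-essential amino acids. Antibiotic and antimycotic are listed for the cycling medium but not for the thapsigargin medium. The extract protocol gives 40 min of RNase digestion and the design text of the series gives 20 min. The titles were used to tell the assays apart, because a further label describes even the thapsigargin RNA-seq libraries as protected fragments. Nothing in the labels says that replicates came from separate cultures. The p-values below therefore measure the spread between libraries, which may be technical. Of the gene identifiers, 19161 were protein coding and present in the gene lists of all files, and 11702 of these passed the filter on low counts and were tested.

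Thapsigargin blocks the SERCA pumps that fill the endoplasmic reticulum (ER) with calcium, and the loss of ER calcium impairs protein folding there. The sensors PERK (EIF2AK3), IRE1 (ERN1) and ATF6 then start the unfolded protein response. PERK phosphorylates the initiation factor eIF2, which lowers initiation on most mRNAs and favours a small set with upstream open reading frames, ATF4 among them; this is the integrated stress response (ISR). IRE1 splices the XBP1 mRNA and ATF6 is cut in the Golgi, and both products raise transcription of chaperones and of genes for the removal of misfolded proteins. Calcium released into the cytosol also activates calcineurin, a phosphatase that sends NFAT transcription factors to the nucleus.

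The 2 thapsigargin footprint libraries stood apart from the other 12 in ways that bear on every value below. They held 1936976 and 2044900.0 gene counts, against 9874835 to 14439646 in cycling cells. Reads mapping to several places, which enter no gene count, made up 65.2% and 66.9% of their reads, against 26.5% to 31.9% in the cycling libraries. Of their uniquely mapped reads 12.6% and 11.3% lay outside genes, against 1.42% to 1.73%. They were counted over a list of 62703 genes and all 12 other Ribo-seq libraries over a list of 60664, so treatment, gene list, depth and read composition cannot be told apart in this comparison. They also resembled each other less than replicates of the cycling state did. CPM are counts per 1e6 counts, scaled by TMM. The correlations and SDs of log2 ratios in this paragraph used library totals without TMM. Over the genes tested, the correlation of log2 CPM was 0.868 between the 2 thapsigargin libraries and 0.988 to 0.990 between cycling libraries. A thapsigargin library and a cycling library correlated at 0.837 to 0.884. The scatter depended on the level of a gene: the SD of the log2 ratio between the 2 thapsigargin libraries was 1.75 at 5 to 20 CPM, 0.95 at 20 to 50 CPM and 0.25 above 300 CPM. Between cycling libraries it was at most 0.35, 0.26 and 0.23 at these levels. Values of genes under about 50 CPM are therefore poorly fixed in treated cells. No molecular identifiers are described, so PCR copies were counted as separate reads.

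**Figure D1:**
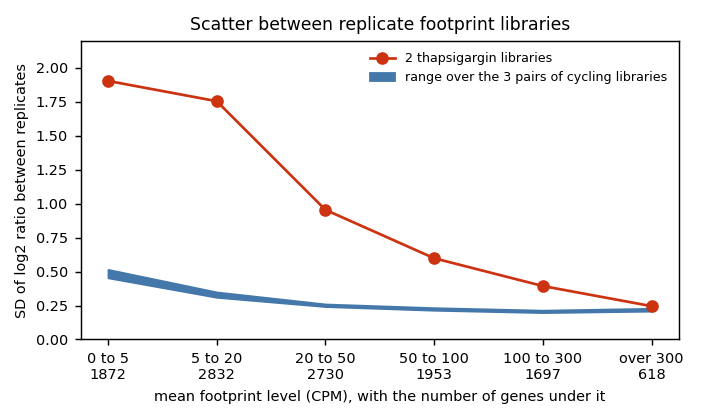
SD over genes of the log2 ratio between replicate footprint libraries (y axis), by the mean level of the gene in CPM (x axis, with the number of genes in each bin). The line shows the 2 thapsigargin libraries, from 1.90 at the lowest levels to 0.25 above 300 CPM, and the band the range over the 3 pairs of cycling libraries, which reaches 0.52 at most.

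For this reason a pair of tests was read side by side. edgeR's quasi-likelihood test over all 14 Ribo-seq libraries, with a spread shared by all states, called 5203 of 11702 genes at a Benjamini-Hochberg adjusted p under 0.05 (44.5%). Of these 2348 were higher (20.1%) and 2855 lower (24.4%) with thapsigargin. limma voom with a spread estimated for each state, added after the scatter had been seen, called 1194 genes (10.2%), 859 higher (7.34%) and 335 lower (2.86%). All 1194 were also among the edgeR calls. Below, "rose" and "fell" are used only of genes that passed both tests, and adjusted p-values are edgeR's unless voom is named. The edgeR estimate is given as the log2 fold change of thapsigargin over cycling (2 against 3 libraries) ± SE. This SE was worked back from the test statistic of the fit over all 14 libraries. It rests on the spread shared by all states and not on the scatter of the treated pair alone. SEs for mRNA and per mRNA were made in the same way from their own fits. The median over all genes tested was -0.11, and it lay between -0.16 and -0.11 under other scalings. Scaling removes any change shared by all genes, so a fall in overall translation could not be seen.

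Most of the tested mRNAs with upstream open reading frames carried more footprints after thapsigargin. Of 11 listed mRNAs of this kind 9 were tested. edgeR called 7 higher, and 6 of these rose by both tests; neither test called one lower, and at an unadjusted p under 0.05 edgeR, voom and DESeq2 gave 0 lower as well. The list's median log2 fold change was 0.80, against -0.11 for all genes. DDIT3 (CHOP), a transcription factor of prolonged ER stress, had 402 and 486 CPM with thapsigargin and 10.7, 11.2 and 15.7 CPM in cycling cells. The groups were far apart, with a log2 fold change of 5.15 ± 0.25 (adjusted p = 1.05e-08, voom 4.43e-08), or 35.5-fold. PPP1R15A (GADD34), which brings a phosphatase to eIF2 and so ends the ISR, had 1183 and 1052 against 56.6, 39.9 and 67.1 CPM, a log2 fold change of 4.36 ± 0.23 (adjusted p = 2.37e-08). ATF4, the main transcription factor of the ISR, had 471 and 603 CPM against 179, 174 and 206 CPM. Both treated libraries lay above all 3 cycling ones, which held for 24.8% of all genes tested, and the log2 fold change was 1.53 ± 0.13 (adjusted p = 2.07e-06, voom 5.58e-05). Smaller rises were found for PPP1R15B, the constitutive partner of the same phosphatase (0.85 ± 0.17), for IBTK (0.68 ± 0.12) and for the glutamyl-prolyl tRNA synthetase EPRS1 (0.51 ± 0.10). SLC35A4 was called by edgeR alone (0.44 ± 0.15, voom adjusted p = 0.311). ATF5 and MIEF1 passed neither test. ATF5 had 27.3 and 29.3 CPM against 20.7, 9.81 and 18.4 CPM, which did not overlap (adjusted p = 0.0638). Counts cover whole genes, so footprints on an upstream reading frame and on the main frame were not separated.

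**Figure D2:**
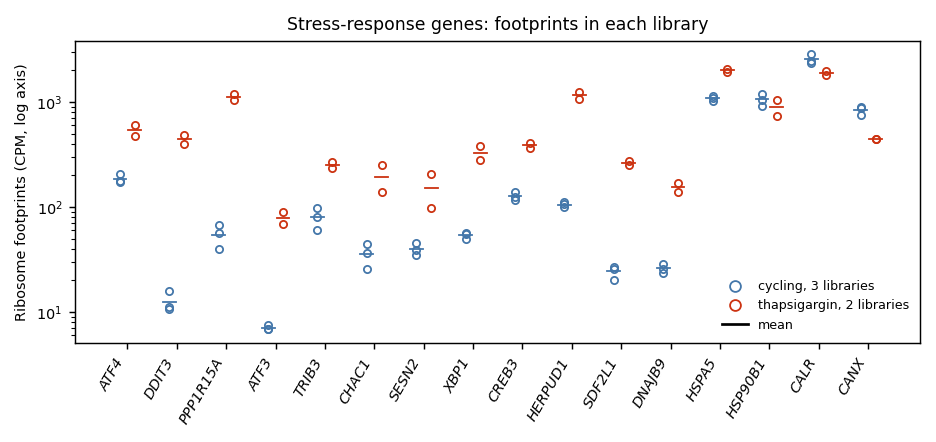
Footprint level in CPM (log axis) of 16 genes of the ISR and the unfolded protein response in each of the 3 cycling and 2 thapsigargin libraries, with the group mean as a bar. The largest separation is that of DDIT3, from 10.7 to 15.7 CPM up to 402 and 486 CPM; the 2 groups overlap for HSP90B1.

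Among 20 regulators and targets downstream of ATF4, 19 were tested; edgeR called 7 higher and 3 lower, and 6 rose by both tests (median log2 fold change 0.16). ATF3, a repressor induced by stress, had 68.2 and 89.9 CPM against 7.57, 6.86 and 6.84 CPM (3.48 ± 0.20). CHAC1, which degrades glutathione, had 140.2 and 249.8 against 44.6, 25.9 and 36.8 CPM (2.45 ± 0.27). TRIB3, a pseudokinase that restrains ATF4 and AKT, had 271 and 236 against 97.5, 60.3 and 81.2 CPM (1.67 ± 0.19). SESN2, which lowers mTORC1 activity, rose by 1.93 ± 0.26, though its 2 treated libraries differed, at 98.2 and 206 CPM, and the estimate was 1.32 without library 2. The transcription factor CEBPB rose by 1.59 ± 0.18 and the autophagy receptor SQSTM1 by 0.76 ± 0.09. The call of SQSTM1 was lost when both strands were counted (log2 fold change 0.21). Of the remaining members, GDF15, a secreted stress cytokine, had overlapping groups at 56.2 and 73.2 and 81.3, 55.9 and 65.3 CPM (-0.06, adjusted p = 0.91). The 3 called lower by edgeR were SESN1, EIF4EBP1 and XPOT, and none of them passed voom (adjusted p = 0.142, 0.261 and 0.152).

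Amino acid supply, the best known output of ATF4, moved in part. Of 24 genes edgeR called 8 higher and 2 lower, and both tests 3 higher and 1 lower (median 0.09). The amino acid carrier SLC38A2 had 5927 and 8880.1 CPM with thapsigargin and 2855, 2604 and 2200.2 CPM in cycling cells (1.54 ± 0.25, adjusted p = 0.0003). PSAT1, a transaminase of serine synthesis, had 588 and 617 against 202, 211 and 227 CPM (1.50 ± 0.13). The aspartate aminotransferase GOT1 rose by 0.72 ± 0.13. PHGDH, which catalyses the step before PSAT1 in the same pathway, went the other way, with 244 and 275 against 495, 502 and 522 CPM (-0.96 ± 0.15, voom adjusted p = 0.0188). The groups did not overlap for either serine enzyme. ASNS, the asparagine synthetase, had too few footprints to judge, at 3.27 and 1.57 CPM and 1.66, 1.15 and 0.641 CPM. The transporters SLC7A1 and SLC3A2 and the enzyme CTH were higher by edgeR alone (voom adjusted p from 0.106 to 0.136).

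Of the 20 cytosolic aminoacyl-tRNA synthetases, edgeR called 8 higher and 3 lower and both tests 4 higher (median 0.19). SARS1, the seryl-tRNA synthetase, had 2152 and 2089 CPM against 628, 596 and 646 CPM. This was the largest rise of the list, 1.77 ± 0.08 (adjusted p = 3.26e-09), and its mRNA was not called (0.05 ± 0.11, adjusted p = 0.795). AARS1 (1.12 ± 0.10), GARS1 (0.76 ± 0.08) and EPRS1 followed. KARS1 (-0.49), MARS1 (-0.41) and YARS1 (-0.27) were lower by edgeR alone. Of the 12 genes of eIF2, its kinases and its exchange factor eIF2B, EIF2S1, which encodes the phosphorylated subunit, rose from 208, 211 and 215 CPM to 311 and 382 CPM (0.71 ± 0.11). The kinase genes EIF2AK2 and EIF2AK4 were lower by edgeR alone, and EIF2AK3 (PERK) had 38.2 and 16.2 CPM in its 2 treated libraries and 14.6, 16.3 and 16.3 CPM in cycling cells, an overlap (adjusted p = 0.0894).

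In the unfolded protein response proper, footprints of a few genes rose strongly and those of most ER chaperones did not. XBP1 had 280.4 and 378 CPM with thapsigargin and 49.5, 56.8 and 55.6 CPM in cycling cells (2.61 ± 0.20, adjusted p = 8.32e-07). CREB3, a membrane-bound transcription factor related to ATF6, had 411 and 364 against 139, 124 and 116 CPM (1.62 ± 0.15). These were the 2 of 10 sensors and regulators that rose. ATF6 and the protease gene MBTPS2 were lower by edgeR alone, and ERN1 had 8.18 and 7.84 CPM against 6.53, 8.15 and 6.94 CPM, also an overlap. Among 13 tested genes of ER-associated degradation edgeR called 2 higher and 3 lower, against 20.1% and 24.4% of all genes tested. HERPUD1, a membrane protein that organises the degradation complex, was the member that passed both tests. It had 1072 and 1245 CPM against 99.3, 107 and 111 CPM (3.46 ± 0.18, adjusted p = 2.37e-08).

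Of the 21 ER chaperones and folding enzymes, edgeR called 6 higher and 5 lower, against 20.1% and 24.4% of all genes tested. Both tests called 3 higher (median -0.24). SDF2L1, a cochaperone that keeps clients bound to BiP, had 249.9 and 277 against 26.97, 20.1 and 25.8 CPM (3.44 ± 0.29). DNAJB9 (ERdj4), a cochaperone that acts on IRE1, had 169 and 138 against 23.8, 28.4 and 25.7 CPM (2.56 ± 0.33). MANF, an ER protein that binds BiP, rose by 1.13 ± 0.28, a call that was lost without thapsigargin library 2 (0.81). HSPA5, which encodes BiP, the main chaperone of the ER, was higher by edgeR alone. It had 1921 and 2078 CPM against 1033, 1099.8 and 1139.6 CPM, with no overlap (0.87 ± 0.30, adjusted p = 0.0281, voom 0.113). Leaving out any of 4 libraries (cycling 1 or 2, or either thapsigargin library) removed HSPA5 from the edgeR calls too. Genes for calnexin and a disulfide isomerase, which fold glycoproteins, had lower values. CANX had 444 and 442 CPM against 751, 881 and 902 CPM (-0.93 ± 0.31, voom adjusted p = 0.126) and PDIA3 80.2 and 93.0 against 241, 299.6 and 289.6 CPM (-1.68 ± 0.32, voom 0.0643). The groups overlapped for HSP90B1 (GRP94), at 1053 and 737 and 920.1, 1207 and 1054 CPM. CALR (calreticulin) was called by neither test (-0.44, adjusted p = 0.279).

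The promoters of these genes show where the ER stress response elements lie, and are printed because genes with the same element differed in their footprints. RefSeq promoter windows (GRCh38.p14, 250 bases before to 50 after the start) matched 9690 of the 11702 genes. The element ERSE was searched as CCAAT, any 9 bases and CCACG, and ERSE-II as ATTGG, any 1 base and CCACG, on both strands. ERSE was found in 22 of 27305 promoters (0.0806%) and ERSE-II in 15 (0.0549%). ERSE was found in 6 of the 20 ER chaperone promoters matched (HSPA5, CRELD2, HSP90B1, CALR, CANX and ERO1B) and in that of XBP1; ERSE-II was found in SDF2L1, HYOU1 and HERPUD1. HSP90B1 has a further ERSE match at -194 from the start, outside the stretch printed for it. The letters below run 5′ to 3′ along the gene, upstream of the start, with the element in capitals.
HERPUD1, chr16:56931992-56932091, plus strand: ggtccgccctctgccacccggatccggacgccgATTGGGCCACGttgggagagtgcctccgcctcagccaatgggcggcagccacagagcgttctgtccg
SDF2L1, chr22:21642072-21642171, plus strand: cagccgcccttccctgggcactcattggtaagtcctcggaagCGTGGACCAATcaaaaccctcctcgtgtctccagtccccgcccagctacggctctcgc
XBP1, chr22:28800570-28800669, minus strand: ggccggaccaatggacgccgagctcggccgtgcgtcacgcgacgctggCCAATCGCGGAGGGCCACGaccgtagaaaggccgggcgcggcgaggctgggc
HSPA5, chr9:125241364-125241463, minus strand: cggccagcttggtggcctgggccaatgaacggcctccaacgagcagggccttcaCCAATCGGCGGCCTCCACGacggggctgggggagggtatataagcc
CRELD2, chr22:49918514-49918613, plus strand: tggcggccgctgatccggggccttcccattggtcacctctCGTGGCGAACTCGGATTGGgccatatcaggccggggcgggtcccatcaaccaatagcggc
HSP90B1, chr12:103930260-103930359, plus strand: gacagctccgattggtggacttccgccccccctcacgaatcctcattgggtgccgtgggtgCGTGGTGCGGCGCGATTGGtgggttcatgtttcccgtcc
CALR, chr19:12938359-12938458, plus strand: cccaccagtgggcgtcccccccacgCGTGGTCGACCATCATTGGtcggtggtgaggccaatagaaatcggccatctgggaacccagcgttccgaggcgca

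HERPUD1, SDF2L1 and XBP1 rose by both tests, HSPA5 and CRELD2 (1.23 ± 0.34, adjusted p = 0.0107) by edgeR alone, and HSP90B1 and CALR by neither. CANX, which has ERSE too, was lower by edgeR alone. HYOU1 and ERO1B passed neither test in footprints (0.34 and 0.23) although their mRNA was called higher (0.92 ± 0.25 and 1.77 ± 0.30). Among edgeR's calls with a promoter, ERSE lay in 7 of 1965 higher genes (0.356%) and 1 of 2351 lower genes (0.0425%), against 14 of the 9690 genes tested (0.144%). A match of letters is a description and not evidence of binding. Of the 6 motifs searched, ERSE-II lay in 5 of 1965 higher and 1 of 2351 lower genes, against 10 of 9690. The letters TGACGTGG (UPRE) were found in 1.53% of higher, 0.978% of lower and 0.949% of all genes tested. For TGATGNAAT (C/EBP-ATF, N any base) these shares were 0.763%, 0.510% and 0.516%, and for TGANTCA (AP-1) 4.17%, 4.38% and 4.33%. C/EBP-ATF was found in 0 of 16 promoters of the list downstream of ATF4 and in 0 of 18 for amino acid supply. Forms of this element with other letters, and sites outside the window, were not searched. These counts therefore do not show that the genes lack such elements. The CRE letters TGACGTCA were found in 3.72% of the higher and 3.57% of the lower genes. They lay in 3.53% of the promoters of all genes tested and in 1.98% of all promoters.

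**Figure D3:**
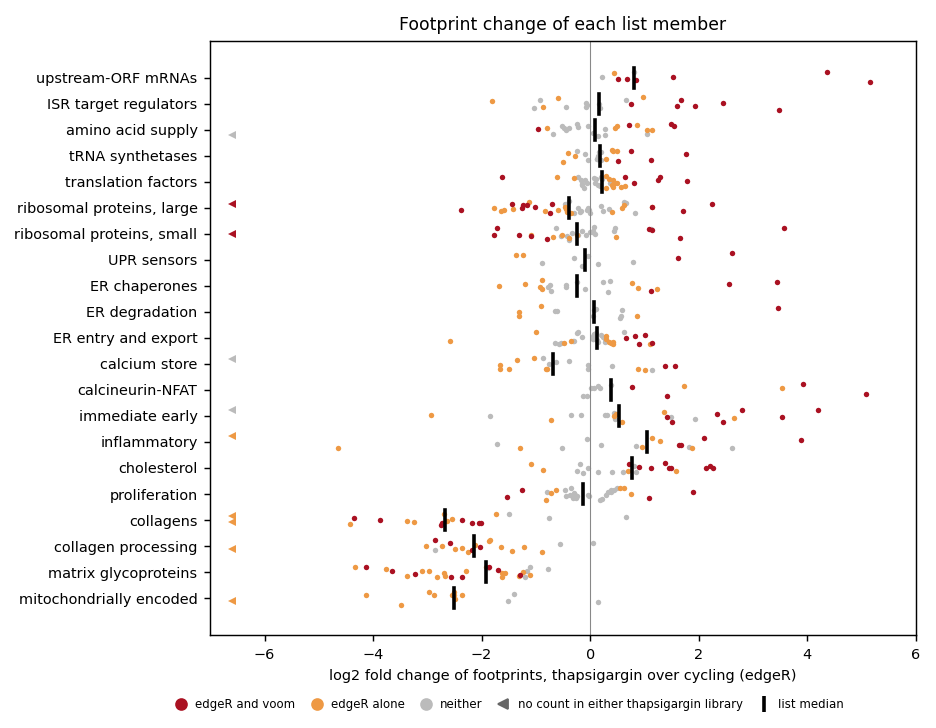
Footprint log2 fold change (thapsigargin over cycling, x axis) of each tested member of 21 gene lists, with the list median as a bar. Dark red points passed edgeR and voom, orange points edgeR alone and grey points neither; triangles at the left edge had no count in either thapsigargin library. The medians of the collagen, mitochondrially encoded, collagen processing and matrix glycoprotein lists lie at -2.67, -2.51, -2.15 and -1.92. Those of the inflammatory, upstream-ORF, cholesterol and immediate early lists lie at 1.05, 0.80, 0.76 and 0.53.

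Of 36 genes of ER entry and of transport between ER and Golgi, edgeR called 12 higher and 4 lower, and both tests 5 higher (median 0.13). The risers were coat components: the COPII genes SEC23B (210.0 and 221 against 98.2, 97.0 and 98.0 CPM, 1.14 ± 0.10), SEC24A (1.01 ± 0.09) and SEC24B (0.82 ± 0.11), and the COPI genes COPA (0.90 ± 0.09) and COPG1 (0.65 ± 0.09). SEC61A1, the channel of the translocon, passed neither test (-0.22 ± 0.31, adjusted p = 0.576). SRP9, a subunit of the signal recognition particle, was lower by edgeR alone (1.64 and 7.84 against 40.0, 26.8 and 20.0 CPM, voom adjusted p = 0.192).

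RCAN1 and HDAC9, from the list of calcineurin-NFAT genes, were among the 12 largest rises by the rule given below. RCAN1, a calcineurin inhibitor that NFAT itself induces, had 299 and 322 CPM with thapsigargin and 10.5, 7.07 and 10.0 CPM in cycling cells (5.09 ± 0.19, 34.0-fold, adjusted p = 1.13e-09). HDAC9, a class IIa histone deacetylase, had 55.6 and 73.7 against 3.84, 3.9 and 5.02 CPM (3.93 ± 0.30). Of 13 tested members edgeR called 6 higher and both tests 4 higher, with PPP3CC, a catalytic subunit of calcineurin (1.42 ± 0.17), and NFAT5 (0.78 ± 0.10) as the others. At an unadjusted p under 0.05, edgeR, voom and DESeq2 gave 0 lower. PTGS2 (cyclooxygenase 2) and PPP3R1 were higher by edgeR alone. RCAN2 (-0.13) and RCAN3 (-0.07) passed neither test. In the list of calcium store genes, edgeR called 4 of 20 higher and 7 lower, against 20.1% and 24.4% of all genes tested. Both tests called 2 higher: ORAI2, a channel of store-operated entry (21.8 and 30.3 against 7.88, 7.07 and 11.5 CPM, 1.57 ± 0.32), and the calcium release channel ITPR3 (70.9 and 70.0 against 30.1, 23.2 and 28.1 CPM, 1.38 ± 0.23). STIM1, the calcium sensor of the ER, had 5.46 and 9.93 against 20.4, 24.8 and 27.9 CPM (-1.66 ± 0.47) and passed edgeR alone. ATP2A2, which encodes the pump that thapsigargin blocks, had 930.1 and 1043 against 739, 772 and 725 CPM (0.40 ± 0.31, adjusted p = 0.305). With thapsigargin library 1 left out, the number of these genes called lower by edgeR went from 7 to 1.

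Of 24 immediate early genes edgeR called 12 higher and 2 lower, and both tests 7 higher (median 0.53). The nuclear receptors NR4A3 (41.5 and 61.1 against 1.24, 5.56 and 1.17 CPM, 4.19 ± 0.60) and NR4A2 (133 and 98.2 against 3.94, 19.8 and 5.23 CPM, 3.54 ± 0.58) were the largest, and cycling library 2 was the highest of the controls for both. Without it the estimates were 5.41 and 4.67. IER3, a survival gene, had 827 and 783 against 141, 98.2 and 108 CPM (2.80 ± 0.27). DUSP1, a MAP kinase phosphatase (2.34 ± 0.38), and the transcription factors KLF4 (2.45 ± 0.21), KLF6 (1.41 ± 0.16) and FOSL2 (1.50 ± 0.17) also rose. EGR1, a zinc finger transcription factor, had lower values, with 2.18 and 15.2 against 66.5, 61.5 and 73.6 CPM, and passed edgeR alone (-2.93 ± 0.80, voom adjusted p = 0.521). FOS had no count in either treated library and 1.97, 2.53 and 3.31 CPM in cycling cells. Of 18 inflammatory genes edgeR called 8 higher and 3 lower (median 1.05). Both tests called 4 higher: the chemokine gene CXCL8 and the NF-kappaB subunits NFKB1 (1.63 ± 0.12), NFKB2 (1.67 ± 0.14) and RELB (2.10 ± 0.36). RELB had 21.3 and 57.5 CPM against 12.3, 7.07 and 8.44 CPM, and its estimate was 1.22 without thapsigargin library 2 and 2.65 without library 1. CXCL8 had 136 and 164 CPM against 2.28, 23.4 and 3.1 CPM, again with cycling library 2 above the other controls (3.89 ± 0.73, and 5.82 without that library). Of the 13 cell death genes tested edgeR called 2 higher and 4 lower, against 20.1% and 24.4% of all genes tested. Both tests called 1 higher. PMAIP1 (NOXA), which promotes apoptosis, rose, with 310.4 and 446 against 118, 87.1 and 99.5 CPM (1.90 ± 0.15). BCL2L1, a survival gene, was higher by edgeR alone (0.86 ± 0.15), and its estimate turned to -0.61 when both strands were counted. Of 2 further genes that promote apoptosis, BBC3 (PUMA) had 0 and 3.66 against 11.5, 8.8 and 10.7 CPM (-2.46 ± 0.64) and BCL2L11 (BIM) 0 and 0.523 against 5.6, 10.4 and 6.94 CPM (-4.78 ± 1.09), both lower by edgeR alone and at few counts (voom adjusted p = 0.143 and 0.227). The call of BBC3 was lost without thapsigargin library 1 (-1.48) and with only the 5 libraries of the comparison in the fit. The decoy receptor gene TNFRSF10D was lower by edgeR alone as well (-1.60 ± 0.39), a call lost without thapsigargin library 1. The death receptor TNFRSF10B, a known target of DDIT3, was lower by edgeR alone (52.9 and 86.2 against 129, 137 and 137 CPM, voom adjusted p = 0.204).

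The extracellular matrix, the main secreted product of fibroblasts, took a smaller share of the footprints after thapsigargin. Of 20 tested collagens edgeR called 17 lower and both tests 8 lower, and the median log2 fold change was -2.67. COL1A1, which encodes a chain of type I collagen, had 1786 and 1903 CPM with thapsigargin and 12752, 11672 and 12884 CPM in cycling cells (-2.75 ± 0.34, adjusted p = 4.08e-05, voom 0.000284). COL1A2, the other chain, had 636 and 710.2 against 8739.6, 10102 and 10558 CPM (-3.86 ± 0.35). COL3A1, the chain of type III collagen, fell furthest of the 8, with 98.7 and 99.8 against 1646, 2267 and 2142 CPM (-4.35 ± 0.41). COL6A2 (-2.73 ± 0.40), COL6A1 (-2.37 ± 0.37), COL5A2 (-2.18 ± 0.38), COL12A1 (-2.05 ± 0.36) and COL6A3 (1064 and 958 against 3676, 4437 and 4046 CPM) fell as well. Both treated libraries lay below all 3 cycling libraries for 19 of the 20 collagens, which held for 35.6% of all genes tested. COL15A1 and COL5A3 had no count in either treated library; for COL15A1, at 47.0, 55.3 and 49.0 CPM in cycling cells, a floor of 3 counts over both libraries gives at least 63.0-fold lower. With such genes set at that bound the list median stayed -2.67.

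Among the enzymes that modify and cross-link collagen, 17 of 20 were called lower by edgeR and 4 by both tests (median -2.15). These 4 were the prolyl hydroxylase P3H1 (21.3 and 43.9 against 206, 249 and 255 CPM, -2.86 ± 0.43, and -3.46 without thapsigargin library 2), the lysyl oxidase LOXL2 (-2.57 ± 0.44), the collagen chaperone SERPINH1 (255 and 249.8 against 1208, 1010.2 and 1188 CPM, -2.17 ± 0.40) and the proteinase enhancer PCOLCE (-2.03 ± 0.31). Of 29 matrix glycoproteins and proteoglycans edgeR called 24 lower and both tests 8 (median -1.92). FN1 (fibronectin) had 1694 and 1695 CPM against 7158, 9637 and 9392 CPM (-2.36 ± 0.37, adjusted p = 0.00023). TGFBI, an adhesion protein induced by TGF-beta, had 426 and 430.1 against 3547, 4210.0 and 4275 CPM (-3.23 ± 0.40). POSTN (periostin) had 105 and 73.7 against 977, 1304 and 1080.4 CPM (-3.65 ± 0.41), and the proteoglycan BGN 9.27 and 47.6 against 488, 474 and 545 CPM (-4.13 ± 0.59), a gene whose 2 treated libraries differed widely; its estimate was -5.74 without library 2 and -3.39 without library 1. TNC, LAMC1, DCN and SPARC fell by 1.29 to 2.55; the call of SPARC was lost without thapsigargin library 2 (-1.18, adjusted p = 0.0503). In these 3 lists 0 genes were called higher by edgeR or voom, and 0 by either or by DESeq2 at an unadjusted p under 0.05. All 29 glycoproteins had both treated libraries below all cycling ones, which held for 35.6% of all genes tested.

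**Figure D4:**
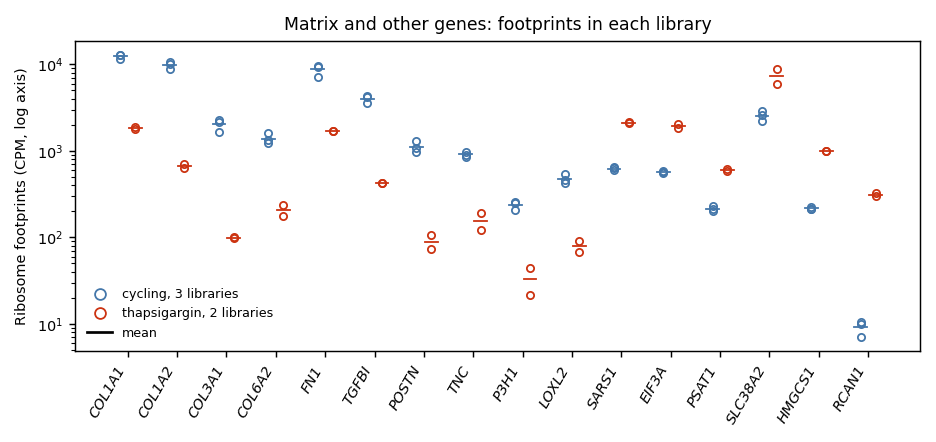
Footprint level in CPM (log axis) of 10 matrix genes and 6 genes that rose, in each of the 3 cycling and 2 thapsigargin libraries, with the group mean as a bar. COL1A1 goes from 11672 to 12884 CPM down to 1786 and 1903 CPM, and SARS1 from 596 to 646 CPM up to 2089 and 2152 CPM.

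These matrix genes are also markers of the cell type. Of 11 fibroblast markers edgeR called 9 lower and 1 higher, and both tests 5 lower and 1 higher (median -2.16). VIM (vimentin), an intermediate filament of mesenchymal cells, did not follow the collagens, with 9817 and 8924 CPM against 10340.0, 8751 and 9165 CPM (-0.01 ± 0.10, adjusted p = 0.96). The receptors PDGFRA (-2.49 ± 0.40) and PDGFRB (-2.16 ± 0.37) were lower by edgeR alone, and S100A4 rose (0.81 ± 0.17). Of the markers of other cell types, 3 of 8 epithelial, 2 of 6 endothelial and 1 of 7 immune markers passed the count filter. Of those tested, 3 epithelial, 1 endothelial and 0 immune markers had 20 CPM or more in the higher group. EPCAM, CDH1, PECAM1, CDH5 and PTPRC did not pass it. The keratin gene KRT19 rose, with 149 and 153 against 41.3, 23.6 and 34.8 CPM (2.19 ± 0.26), and its mRNA was called higher too (2.31 ± 0.38). It was the 1 epithelial marker of 3 called in footprints. KRT18 had 93.3 and 39.7 against 107, 76.9 and 102 CPM and passed neither test (-0.52 ± 0.27, adjusted p = 0.136), with its mRNA called lower (-0.54 ± 0.18). Without thapsigargin library 1 the footprints of KRT18 were called lower by edgeR (-1.25). KRT8 passed neither test in footprints (0.22 ± 0.22) and was not called in mRNA (-0.83 ± 0.33). In bulk libraries fewer cells of a kind and less RNA per cell cannot be told apart.

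Of 45 ribosomal protein genes of the large subunit edgeR called 20 lower and 7 higher, and both tests 9 lower and 3 higher (median -0.38). Of 32 for the small subunit these counts were 11 lower and 5 higher, then 6 and 4 (median -0.23). Among all genes tested edgeR called 24.4% lower and 20.1% higher, and voom 2.86% and 7.34%. By edgeR the share of either list called higher was not above that of all genes and the share called lower was. Calls by edgeR in either direction grew with level, from 37.5% of genes under 5 CPM to 61.8% above 300 CPM. The lists were not matched to other genes for level. RPL38 had 286 and 286 CPM against 647, 721 and 690.2 CPM (-1.26 ± 0.09), RPS3 312 and 311 against 623, 632 and 729 CPM (-1.08 ± 0.10) and RPS25 122 and 119 against 356, 370.4 and 503 CPM (-1.76 ± 0.15). RPS6, whose protein is a target of S6 kinase, was lower by edgeR alone (379.7 and 435 against 564, 523 and 519 CPM). RPL26 fell (-2.37 ± 0.17) although its mRNA was called higher (1.14 ± 0.20). In the other direction, RPS28 had 3.27 and 3.66 against 0.104, 0.144 and 0.641 CPM (3.57 ± 0.80, and 4.65 without cycling library 3), which rests on few counts, RPS18 1692 and 1690.1 against 471, 458 and 679 CPM (1.66 ± 0.26), RPL10 416 and 622 against 104, 101 and 124 CPM (2.24 ± 0.16) and RPS20 567 and 472 against 255, 221 and 235 CPM (1.14 ± 0.12). The estimate of RPL10 turned to -2.49 when both strands were counted. Genes of this family have many near-identical pseudogenes, so reads are lost to multiple mapping, and that share of reads was over 65% in the treated libraries and under 32% in the cycling ones; its part in these values was not tested. When genes whose cycling footprints and mRNA differed over 8-fold were left out, the large-subunit counts by edgeR went from 20 to 12 lower and from 7 to 4 higher.

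Of 33 tested translation factors, edgeR called 15 higher and 3 lower, and both tests 5 higher and 1 lower (median 0.21). The largest rise was that of EIF3A, the scaffold subunit of eIF3, with 2049.6 and 1845 CPM against 582, 555 and 565 CPM (1.78 ± 0.12, adjusted p = 2.44e-07). EIF1, which guards start codon choice, had 1321 and 1402 against 501, 556 and 609 CPM (1.29 ± 0.12). EEF1B2 (1.25 ± 0.19), the scaffold EIF4G1 (0.81 ± 0.11) and EIF3G (0.65 ± 0.10) rose, and EIF4B fell (-1.62 ± 0.24, and -2.36 without thapsigargin library 1), a call that was lost when both strands were counted. The elongation factor gene EEF1A1 was higher by edgeR alone (468 and 468 against 407, 344 and 293 CPM), and EEF2 had 2704 and 2735 against 2582, 2045 and 2411 CPM (0.21 ± 0.13, adjusted p = 0.196). With only the 5 libraries of the comparison in the fit, edgeR called 9 of these genes higher. In the list of 16 heat shock genes edgeR called 5 higher and 4 lower, against 20.1% and 24.4% of all genes tested. Both tests called 2 of each. HSP90AA1 (3889 and 3519.7 against 2048, 1904 and 1709.6 CPM, 0.97 ± 0.14) and the mitochondrial HSPA9 (0.88 ± 0.11) rose, and the constitutive HSPA8 (1007 and 944 against 1535, 1412 and 1557 CPM, -0.62 ± 0.08) fell. The stress-induced HSPA1A and HSPA1B, near-identical copies whose shared reads go uncounted, had 2.18 and 0 CPM and no count in the treated libraries, and 6.33, 6.86 and 7.69 and 14.6, 12.1 and 12.7 CPM in cycling cells. HSPA1B was called lower by both tests.

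Of 22 genes of cholesterol synthesis and its regulation, edgeR called 11 higher and 2 lower, and 9 rose by both tests (median 0.76). HMGCS1, an early enzyme of the pathway, had 1009 and 993 CPM against 210.0, 211 and 225 CPM (2.21 ± 0.11, adjusted p = 2.37e-08). STARD4, a sterol carrier, had 368 and 276 against 68.0, 66.5 and 65.9 CPM (2.27 ± 0.14), and MVD 153 and 178 against 38.8, 30.7 and 43.8 CPM (2.14 ± 0.17). IDI1, NSDHL, MSMO1, FDPS, FDFT1 and LSS rose by 0.71 to 1.49. Proliferation genes gave 5 higher and 5 lower of 30 by edgeR, and 2 of each by both tests. Neither edgeR share was above that of all genes tested, 20.1% higher and 24.4% lower. CDC6, a replication licensing factor, had 157 and 135 against 42.5, 31.4 and 43.6 CPM (1.90 ± 0.21) and the mitotic kinase AURKA rose by 1.09 ± 0.17, while LMNB1 (-1.52 ± 0.17) and CCNB2 (-1.26 ± 0.25, and -1.89 without thapsigargin library 2) fell. MKI67 and TOP2A passed neither test.

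Of the 13 protein-coding genes of the mitochondrial genome edgeR called 10 lower and voom 0; at an unadjusted p under 0.05 voom gave 2 lower, and DESeq2 called 11 after adjustment. MT-ATP6 had 4.91 and 7.84 CPM against 105, 134 and 98.4 CPM, and MT-CO2 30.6 and 52.3 against 283, 384 and 246 CPM. These genes took 0.018% of coding counts in each treated library and 0.093% to 0.127% in the cycling libraries. Mitochondrial ribosomes differ from cytosolic ones, and how digestion and size selection treated them was not tested.

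The largest changes by size held genes of other functions. Among genes at 20 CPM or more in the higher group, with groups that did not overlap and mRNA tested, the 12 largest rises included RCAN1, DDIT3, PPP1R15A, HDAC9, NR4A3 and CXCL8. The others were SERPINB2, a serpin of the plasminogen system (62.2 and 55.4 against 2.28, 1.66 and 1.07 CPM, 5.12 ± 0.28), the ubiquitin ligase gene HECW2 (184 and 161 against 7.36, 11.8 and 8.12 CPM, 4.23 ± 0.23), the insulin receptor substrate IRS2 (288 and 239 against 24.8, 15.9 and 17.1 CPM, 3.78 ± 0.22), the transcription factor DLX2, the GTPase gene RRAD and MBD3. Of the 12 largest falls by the same rule, 9 had no count in either treated library, among them IMPDH2, QRICH1, ITCH, CDC42, COL15A1, EXOSC4, STN1 and DUSP5. The other 3 were the kinase gene PIM1 (0 and 0.523 against 28.0, 33.5 and 35.7 CPM), TBC1D1 (0 and 0.523 against 21.6, 24.0 and 25.4 CPM) and MRPS5 (0 and 2.61 against 70.7, 72.7 and 69.5 CPM). IMPDH2, an enzyme of guanine nucleotide synthesis, had 249, 256 and 279 CPM in cycling cells, which makes the treated libraries at least 327-fold lower, against a floor of 3 counts over both. Its mRNA had 0.829 and 0.298 CPM with thapsigargin and 0.511 and 0.311 CPM in cycling cells. CDC42, a GTPase of cell polarity, had 85.6, 98.2 and 114 CPM of footprints and 3.1 and 2.75 CPM of mRNA in cycling cells. MBD3, a subunit of a chromatin remodelling complex, had 1.76, 0.866 and 2.14 CPM of footprints and 88.3 and 88.7 CPM of mRNA in cycling cells, and 74.2 and 27.2 CPM of footprints in treated ones. For 6 of the 12 falls, mRNA was under 4 CPM in all 4 RNA-seq libraries, which share the gene list of the treated Ribo-seq libraries. Whether these are changes of the cells or of the gene list cannot be told apart. Over the 11652 genes measured in both assays, 284 (2.44%) had cycling footprints and mRNA that differed over 8-fold. Leaving them out gave 5078 edgeR calls in place of 5203. ITCH, a ubiquitin ligase, and QRICH1 were not of this kind, with 63.1 and 55.8 and 14.6 and 14.8 CPM of mRNA in cycling cells, yet had no footprint count in treated cells; QRICH1 lies just inside the 8-fold limit.

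A further ranking, made after the values were seen, took genes called lower by both tests at 100 CPM or more whose cycling footprints and mRNA agreed within 8-fold. Of its 16 largest falls, 9 were genes of the collagen, collagen processing and matrix lists. The other 7 were QRICH1, ITCH, DCAF7, GDF5, TPD52L2, CBR1 and CCNI. TPD52L2, a coiled-coil protein of vesicle traffic, had 79.1 and 64.8 CPM against 449, 475 and 472 CPM (-2.69 ± 0.11) with mRNA not called (0.15 ± 0.14).

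The RNA-seq libraries of the same 2 states, 2 of each, were set beside the footprints. Of 13214 genes tested by edgeR, 3241 were called (24.5%), 1556 higher (11.8%) and 1685 lower (12.8%). Of 11652 genes tested in both assays, 783 were higher in both, which is 33.5% of the genes higher in footprints and 54.3% of those higher in mRNA. Another 831 were lower in both. Footprints were higher with mRNA not called for 1484 genes and lower with mRNA not called for 1940, and the assays were called in opposite directions for 71 genes with higher and 69 with lower footprints. Footprints per mRNA, tested as the interaction of assay and state by edgeR, were called changed for 2425 genes (20.8%), 1074 higher (9.22%) and 1351 lower (11.6%). When libraries were scaled by total counts alone the split was 815 higher and 1636 lower. These calls rest on a spread shared by all states, and the treated and cycling RNA-seq libraries also differed in unmapped reads (1.35% and 1.399% against 31.3% and 32.1%). RNA-seq of both states and treated Ribo-seq were counted over 62703 genes, and cycling Ribo-seq over 60664. The difference in gene list is thus absent from the mRNA change but enters footprints per mRNA and the opposite calls. A change in translation and the gene list cannot be told apart there.

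**Figure D5:**
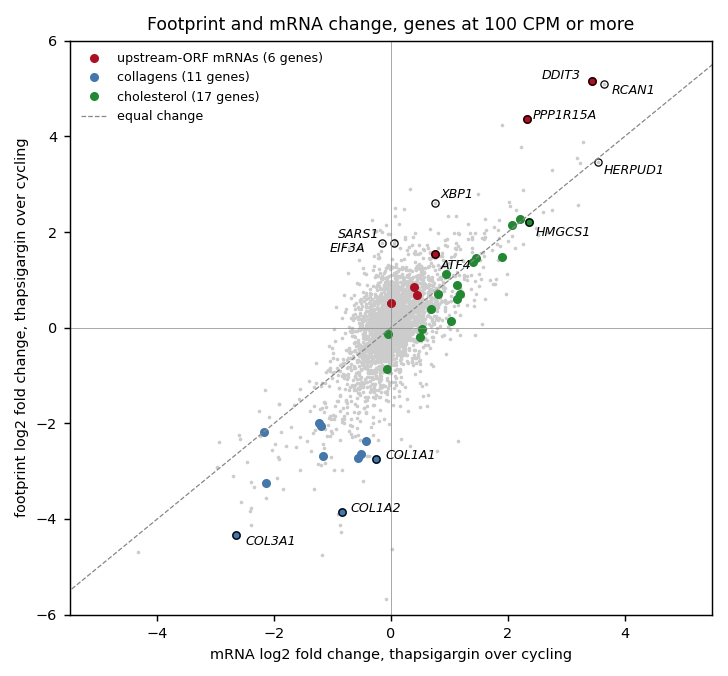
Footprint log2 fold change (y axis) against mRNA log2 fold change (x axis), thapsigargin over cycling, for 2754 genes at 100 CPM or more of footprints with a count in treated cells. The dashed line marks equal change. HMGCS1 lies near it, XBP1, SARS1 and EIF3A above it, and COL1A1 and COL1A2 below it.

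Gene groups differed in how far footprints and mRNA changed together. In the cholesterol list 17 of 22 genes were called higher in mRNA, and 1 of 22 was called per mRNA, as lower. HMGCS1 mRNA was higher by 2.37 ± 0.13, and footprints per mRNA differed by -0.13 ± 0.17 (adjusted p = 0.636). HERPUD1 had 3.54 ± 0.16 in mRNA and -0.06 ± 0.23 per mRNA (adjusted p = 0.872). In mRNA, 9 of the 21 ER chaperones were called higher and 2 lower (median 0.33). For the 13 genes of ER-associated degradation these counts were 7 and 2 (median 0.45). Among all genes tested in mRNA, 11.8% were called higher and 12.8% lower. Per mRNA, 0 chaperones were called higher and 1 lower, and 0 and 3 of the degradation genes. Some upstream-ORF mRNAs were called higher both in mRNA and per mRNA. DDIT3 mRNA was higher by 3.44 ± 0.16 and its footprints per mRNA by 1.74 ± 0.30 (adjusted p = 0.000322), PPP1R15A by 2.33 ± 0.12 and 2.06 ± 0.26, and ATF4 by 0.76 ± 0.12 and 0.80 ± 0.18 (adjusted p = 0.00353). Of the 9 genes of this list 4 were called higher per mRNA. Other genes were called higher per mRNA with smaller changes in mRNA: SARS1 (1.74 ± 0.14 per mRNA), EIF3A (1.96 ± 0.18, mRNA -0.16 ± 0.14), PSAT1 (1.82 ± 0.29, mRNA -0.30 ± 0.25) and XBP1 (1.89 ± 0.30, mRNA 0.75 ± 0.22). CREB3 was higher by 1.38 ± 0.20 per mRNA. Among the 19 regulators and targets downstream of ATF4, 2 were called per mRNA, both lower. TRIB3 had 2.12 ± 0.15 in mRNA and -0.42 ± 0.24 per mRNA (adjusted p = 0.233), and CHAC1 2.76 ± 0.18 and -0.29 ± 0.34.

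Of the 20 collagens, 8 were called lower in footprints per mRNA. COL1A1 mRNA had 739 and 1927 CPM with thapsigargin and 921 and 2254 CPM in cycling cells, a wide overlap, with a log2 fold change of -0.25 ± 0.50 and not called (adjusted p = 0.754). Its footprints per mRNA changed by -2.48 ± 0.61 (adjusted p = 0.0059). COL1A2 gave -0.85 ± 0.35 in mRNA and -3.00 ± 0.48 per mRNA (adjusted p = 0.000164). For COL3A1 both were called, -2.65 ± 0.41 and -1.68 ± 0.54. The median mRNA change of the list was -1.16. FN1 (-0.91 ± 0.44, adjusted p = 0.151) and TGFBI (-0.81 ± 0.40, adjusted p = 0.161) were not called per mRNA, and their mRNA was lower (-1.43 ± 0.27 and -2.40 ± 0.16). Ribosomal protein genes were called higher per mRNA more often than lower, with 12 higher and 7 lower of 45 for the large subunit and 8 higher and 3 lower of 32 for the small one, over mRNA medians of -0.52 in both. Over all genes tested per mRNA, 9.22% were called higher and 11.6% lower. The limits of multiple mapping and of the gene list given above hold for these counts too. The largest gains per mRNA by rule were those of MBD3, RAB13, MOB4, CDKN2AIPNL, INTU and RPL10. INTU, a planar polarity gene, had 147 and 87.3 CPM of footprints against 17.0, 15.5 and 14.7 CPM, with 2.60 ± 0.27 per mRNA. The pairs of opposite calls included PTMA (1.66 ± 0.18 in footprints, -0.72 ± 0.16 in mRNA), RPL7A and TBCA one way and RPL26, HLA-C and VASN the other, the last 2 by edgeR alone in footprints.

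Set against the 9 libraries of quiescent, irradiated and etoposide-treated cells, both treated libraries lay above all 12 others for 1802 genes (15.4%) and below all 12 for 2309 (19.7%). DDIT3 was at 9.99 to 40.9 CPM in those 9 libraries, HERPUD1 at 53.5 to 110.4 CPM and RCAN1 at 10.2 to 31.4 CPM, all below the treated libraries. COL1A1 was at 3759.5 to 12039 CPM and FN1 at 3768 to 17772 CPM, both above them.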

How the data were processed

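Per the labels' protocols, cells were lysed with cycloheximide and footprints came from RNase I digestion, a sucrose cushion, size selection and rRNA depletion. The authors deposited unnormalized gene-level read counts, and the submitters' processing notes name STAR 2.7.10b, hg38 and DESeq2 1.36.0, and the annotation and trimming are not given in the sources used here. Forward-strand counts were used for Ribo-seq and reverse-strand counts for RNA-seq, as the kits require; the summary lines of each file did not enter the totals, and their shares are given in the report. Symbols came from the gene name table (60461 of 60534 shared identifiers) and biotypes from RefSeq GRCh38.p14 (40258 matched). edgeR 4.0.16 (R 4.3.3) fitted all Ribo-seq states by quasi-likelihood with TMM scaling and its expression filter; p-values are two-sided, Benjamini-Hochberg adjusted over all genes tested. limma 3.58.1 (voom, sample weights per state) and DESeq2 1.42.0 were alternatives. On data simulated for the footprint comparison, over 11702 genes, edgeR recovered 74% of genes changed 2-fold and 100% of those changed 4-fold; the simulation used the shared spread. The members and gene lists were chosen with earlier results of these data known. Genes were named by rule: the 12 largest changes each way at 20 CPM or more, up to 3 each way per list plus those needed to account for it, 25 fixed genes, and the largest differences per mRNA. Others, chosen after their values were seen, are said to be so. Results for some genes that the rule names are not reported here. Replicate numbers did not pair the Ribo-seq libraries, and pairing was not examined for RNA-seq.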

Additional observations from a re-analysis of the deposited data

Results flagged for a closer look

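The 2 thapsigargin Ribo-seq libraries exceeded the other 12 in measures that enter no gene count. Reads mapping to several places made up 65.2% and 66.9% of their reads, against at most 31.9% in the others. Of uniquely mapped reads, 12.6% and 11.3% lay outside genes, against at most 2.77%. The part of these reads in the gene counts was not tested.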

How the results depend on the processing

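The count of footprint calls stayed within 1.5 times 5203 under every alternative run except limma voom with a spread for each state, which gave 1194. That alternative, leaving out ribosomal protein genes and leaving out genes whose cycling footprints and mRNA differ over 8-fold were chosen after seeing the data. Of voom's calls 71.9% were higher, against 45.1% of edgeR's. Leaving out 1 library at a time gave 4447 to 5827 footprint calls, 1581 to 3385 mRNA calls and 1534 to 3640 calls per mRNA, against 3241 and 2425 with all. The lowest mRNA counts came without cycling RNA-seq library 2 (1581) or 1 (1715), the lowest per mRNA without cycling RNA-seq library 1 (1534) and the highest without thapsigargin Ribo-seq library 2 (3640). With only thapsigargin and cycling libraries in the fit, mRNA gave 1495 calls and footprints per mRNA 1053 (313 higher and 740.0 lower); fewer libraries then set the spread. In Ribo-seq the replicate number did not pair the libraries: correlations of deviations lay between -0.015 and 0.015. With 2 treated libraries the values of 1 mirror those of the other. Such correlations were not computed for the RNA-seq libraries. With the replicate number as a block there were 5027 footprint, 3262 mRNA and 2322 per-mRNA calls. Of the 189 genes named, 169 were called by edgeR in footprints. Of these 125 kept their direction and call under every one of the 18 alternatives that gave a value, 15 lost the call under voom alone and 28 elsewhere. With both strands counted 2 reversed, RPL10 at -2.49 and BCL2L1, which voom did not call either, at -0.61; the cause was not tested.

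Genes not called changed sign as follows. VIM gave 0.032 with cycling libraries thinned to the thapsigargin depth, 0.28 with both strands counted, 0.018 without ribosomal protein genes and -0.065 to 0.075 without single libraries. GDF15 gave 0.019 when thinned, 0.027 with the replicate block and -0.25 to 0.13 without single libraries. ERN1 gave -0.20 with both strands counted. KRT8 gave -0.061 with both strands counted. Without single libraries KRT8 ran from -0.042 to 0.47, ERO1B from -1.24 to 0.98 and HSP90B1 from -0.51 to 0.0060. Depth limits genes under about 50 CPM in treated cells. A description by protein length was not run.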
